A study of Homo sapiens with 6 samples.

Results

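The genes of the Ran cycle, the karyopherins and the nuclear pore were examined in HGC-27 cells, an undifferentiated human gastric cancer line, with and without the peptide GLUP. GLUP is a cyclic peptide built from the TEAD4-binding motif of VGLL4, intended to hold molecules of the transcription factor TEAD4 together. The 6 RNA-seq libraries comprised 3 control libraries (Con), for which the labels give no treatment and the study's methods name a protein buffer as the negative control, and 3 libraries of cells treated with GLUP (GLUP). The labels give neither dose nor duration. The study's text and methods state the same dose but different durations, and all libraries came from the same unmodified line. The gene list was drawn up by function, with earlier results of these data known. It held 57 genes, all of which were found by symbol among the 62443 genes of the table. A mean of at least 1 FPKM (fragments per kilobase of transcript, scaled to the mapped fragments of the library) over the 6 libraries was required for testing, and 42 of the 57 genes were among the 7406 genes that met it. RANBP1 and NUTF2 were singled out because of their difference between GLUP and Con, so for these 2 genes that difference is given as a description with no test. Values of single libraries are given in the order of the replicates, 1, 2 and 3.

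Traffic through the nuclear pore runs on the small GTPase RAN, which is loaded with GTP in the nucleus by its exchange factor RCC1 and made to hydrolyse it in the cytoplasm by RANGAP1 together with RANBP1 or RANBP2. Importins carry cargo inward and release it on binding RAN-GTP, exportins carry cargo outward together with RAN-GTP, and NUTF2 returns RAN-GDP to the nucleus. Messenger RNA leaves by another route, through NXF1 and its partner NXT1. The pore is a ring of nucleoporins built from a Y-shaped outer complex, an inner ring, membrane anchors, a central channel lined with phenylalanine-glycine repeats, cytoplasmic filaments and a nuclear basket.

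The FPKM values of a library summed to between 909735 and 965147, and the number of reads behind them is not known. Con replicate 2 stood apart, with a mean correlation of 0.898 with the other libraries over all tested genes, against 0.954 to 0.964 for the others. Markers fixed for the cell line were examined as well. VIM was at 222.2 to 387.2 FPKM and the keratins KRT8, KRT18 and KRT19 at 0.764 to 2.51 FPKM, while EPCAM and CDH1 did not exceed 0.124 FPKM, so epithelial markers were low or near 0. Their sum over 5 markers was 2.96 to 3.70 FPKM in Con and 5.17 to 6.06 FPKM in GLUP. The 4 mesenchymal markers, of which CDH2 did not exceed 0.0508 FPKM, summed to 343.9 to 409.7 FPKM in Con and 228.7 to 339.5 FPKM in GLUP. Leukocyte markers (4 of 4 in the table) summed to at most 0.044 FPKM in Con and 0.0244 FPKM in GLUP, with CD3E at 0 in all libraries. Of the endothelial markers, 2 of 3 were in the table and summed to at most 0.0045 FPKM, and PECAM1 was not analysed here. Fibroblast markers were present, with 3 of 4 at a mean of at least 1 FPKM and a sum of 72.6 to 105.2 FPKM in Con and 79.9 to 103.8 FPKM in GLUP. Red cell markers summed to 6.94 to 30.1 FPKM in Con and 23.4 to 32.8 FPKM in GLUP, all from HBA1 and HBA2, with HBB at 0. The part of these markers in the results was not tested.

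The transport machinery was expressed very unevenly. RAN was the most abundant gene of the list, with a mean of 550.3 FPKM over the 6 libraries, followed by the importin alpha KPNA2 at 238.2 FPKM and by RANBP1 at 169.2 FPKM. These 3 genes held 81.1%, 87.5% and 82.5% of the summed FPKM of the list in Con and 75.9%, 79.6% and 79.6% in GLUP. The 26 nucleoporins were far lower, between 0.513 FPKM for NUP210 and 12.3 FPKM for NUP62, with a median of 2.06 FPKM. Of the 6 importin alpha genes, KPNA2 held between 94.9% and 98.7% of the summed FPKM in every library. No comparable dominance existed among the importin beta family, where KPNB1 held 40.0% to 51.3%, or the exportins, where CSE1L held 39.8% to 49.7%.

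**Figure D1:**
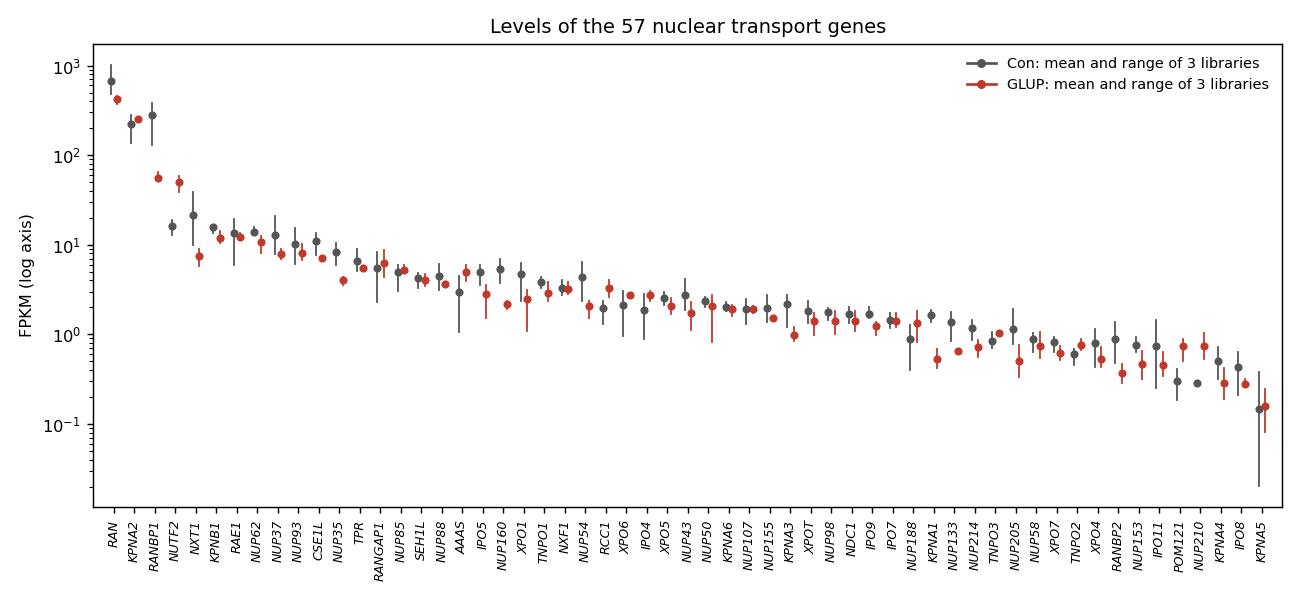
Mean FPKM of each of the 57 genes in Con (grey) and GLUP (red) on a log axis, ordered by the mean over all libraries, with lines from the lowest to the highest of 3 libraries. RAN, KPNA2 and RANBP1 stand at the top, and the ranges of Con and GLUP are apart for RANBP1 and NUTF2, in opposite directions. They are also apart for 9 other tested genes, lower in GLUP, and 1 higher. Of the genes under the minimum, 2 are apart and lower in GLUP and 2 are apart and higher.

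The Ran cycle genes were described first. RANBP1 (ENSG00000099901, protein-coding, chromosome 22, 20103461 to 20114878, plus strand, GRCh37) was at 377.6, 340.2 and 128.8 FPKM in Con and at 51.7, 52.1 and 64.8 FPKM in GLUP. Every GLUP value was thus below every Con value, with Con replicate 3 the nearest to GLUP. In bulk RNA, less RNA per cell and fewer cells of a kind cannot be told apart. Group means were 282.2 ± 134.1 FPKM (SD, n = 3) and 56.2 ± 7.47 FPKM (SD, n = 3). On the scale of log2(FPKM + 1), the difference between the group means, GLUP minus Con, was -2.17 (SE 0.42). The median difference of all tested genes was -0.23, and relative to it RANBP1 differed by -1.94. TRMT2A, which overlaps RANBP1 on the other strand, was at 0.651 to 3.28 FPKM, and whether the counting used strand is not given in the sources used here. The processed pseudogene RANBP1P1 reached at most 0.897 FPKM.

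NUTF2 (ENSG00000102898, protein-coding, chromosome 16, 67880785 to 67906470, plus strand, GRCh37) showed the opposite pattern. It was at 16.1, 12.8 and 19.1 FPKM in Con and at 52.2, 38.4 and 58.2 FPKM in GLUP. All GLUP values exceeded all Con values, and the lowest GLUP value was about 2 times the highest Con value (38.4 against 19.1 FPKM). Group means were 16.0 ± 3.16 FPKM (SD, n = 3) and 49.6 ± 10.2 FPKM (SD, n = 3), a difference of 1.57 (SE 0.31) on the log2 scale, or 1.80 when the median of the tested genes is taken as 0. No other gene with a mean of at least 1 FPKM overlaps NUTF2, and the pseudogene NUTF2P7 reached at most 0.476 FPKM.

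RAN itself (ENSG00000132341, chromosome 12, 131356582 to 131362223, plus strand, GRCh37) was at 480.5, 1014.1 and 525.2 FPKM in Con and at 371.1, 460.2 and 450.7 FPKM in GLUP. The groups did not overlap, but the gap between them was narrow and Con replicate 2 was about 2 times as high as the other Con libraries. The difference was -0.58 (SE 0.33), or -0.35 relative to the median, -0.24 without Con replicate 2, and -0.03 (SE 0.28) after GC and length correction, for which a smooth trend over transcript GC content and length was subtracted within every library. Reads of RAN may be shared with the processed pseudogene RANP1, at 12.5 to 38.9 FPKM, so that its level is uncertain to that extent. RCC1, the exchange factor, was at 2.37, 1.31 and 2.21 FPKM in Con and at 4.05, 3.30 and 2.63 FPKM in GLUP. Its groups also did not overlap, with GLUP above Con and a difference of 0.55 (SE 0.27), or 0.38 without Con replicate 2. SNHG3, at 6.11 to 14.2 FPKM, overlaps RCC1 on the same strand, which makes the RCC1 values uncertain. RANGAP1, the GTPase-activating protein, was at 6.07, 2.29 and 8.29 FPKM in Con and 8.85, 5.58 and 4.41 FPKM in GLUP, and the groups overlapped (difference 0.23, SE 0.41, and -0.20 without Con replicate 2). Apart from RANBP1 and NUTF2, then, RAN lay below Con in all GLUP libraries, as did 22.7% of all tested genes, and RCC1 above, as did 7.55%.

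**Figure D2:**
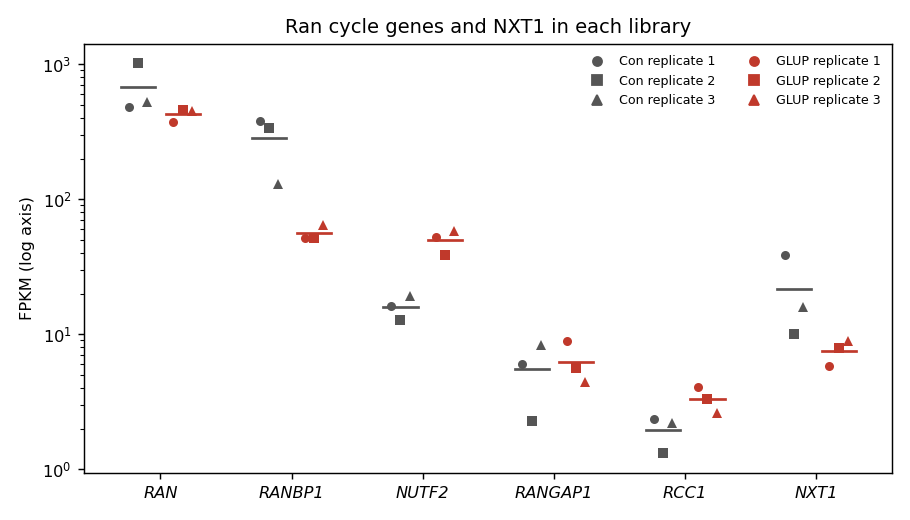
FPKM of the 5 Ran cycle genes and of NXT1 in each library on a log axis, with 1 symbol per replicate and a bar at the group mean. RANBP1 lies between 51.7 and 64.8 FPKM in GLUP against at least 128.8 FPKM in Con, NUTF2 lies above 38 FPKM in GLUP against at most 19.1 FPKM in Con, and RANGAP1 overlaps.

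Because a ratio within a library does not depend on the scaling of that library, the balance between these genes was also computed. RANBP1 exceeded NUTF2 by 23.5, 26.6 and 6.74 times in Con, whereas the ratio was 0.99, 1.36 and 1.11 in GLUP. Near-equal FPKM of RANBP1 and NUTF2 thus marked all GLUP libraries and no Con library. RAN exceeded RANBP1 by 1.27, 2.98 and 4.08 times in Con and by 7.18, 8.84 and 6.95 times in GLUP. The ratio of RAN to NUTF2 was 29.9, 79.3 and 27.5 in Con, compared with 7.11, 12.0 and 7.74 in GLUP. RANBP1 and NUTF2 hence differed from RAN in opposite directions in GLUP. These ratios come from the contrast that singled the 2 genes out and are given without a test.

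**Figure D3:**
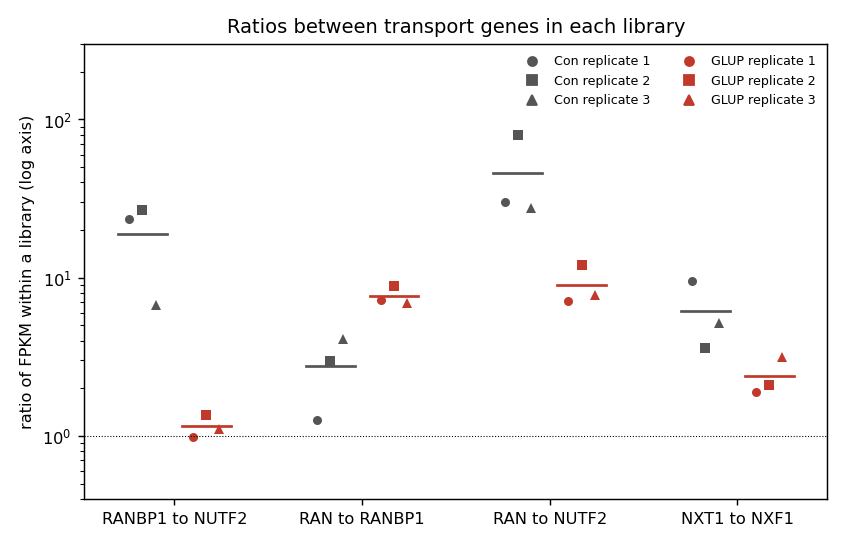
Ratios of FPKM within each library on a log axis, with a bar at the mean of each group and a dotted line at 1. The ratio of RANBP1 to NUTF2 lies between 6.74 and 26.6 in Con and between 0.99 and 1.36 in GLUP.

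The transport receptors lay closer to the median of all tested genes than RANBP1 and NUTF2 did. KPNA2, an adaptor that recognises classical nuclear localisation signals, was at 284.2, 135.9 and 240.3 FPKM in Con and at 255.8, 255.8 and 257.0 FPKM in GLUP. The GLUP values were nearly identical and lay inside the Con range, and the difference of 0.28 (SE 0.33) became -0.03 without Con replicate 2. KPNA1, another importin alpha, was at 1.86, 1.67 and 1.39 FPKM in Con and 0.478, 0.694 and 0.416 FPKM in GLUP, with no overlap and a difference of -0.79 (SE 0.20). After GC and length correction this was -0.28 (SE 0.21). KPNA3 differed by -0.64 (SE 0.27) with overlapping groups, KPNA6 by -0.04 (SE 0.23), and KPNA4 and KPNA5 were under the minimum.

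KPNB1, the importin beta that carries the importin alpha adaptors, was at 16.8, 16.5 and 13.6 FPKM in Con and at 10.7, 14.2 and 10.4 FPKM in GLUP. GLUP replicate 2 lay within the Con range, and the difference was -0.39 (SE 0.28). IPO4, which imports histones and ribosomal proteins, was at 1.89, 0.897 and 2.81 FPKM in Con and 3.07, 2.35 and 2.92 FPKM in GLUP, with overlap and a difference of 0.45 (SE 0.29), or 0.18 without Con replicate 2. The 6 tested genes of the importin beta family ranged in difference from -0.66 for IPO5 to 0.45. Of these, 5 had a lower mean in GLUP, as did 65.5% of all tested genes. Only IPO9 had all GLUP values below Con, as did 22.7% of all tested genes. IPO8, IPO11, TNPO2 and TNPO3 were under the minimum.

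Among the exportins, CSE1L, which returns importin alpha to the cytoplasm, was the most abundant. It was at 12.4, 13.4 and 7.59 FPKM in Con and 7.36, 7.20 and 6.76 FPKM in GLUP. All GLUP values lay below Con, but only by a small margin to Con replicate 3. The difference was -0.54 (SE 0.30), and it was 0.00 (SE 0.17) after GC and length correction. XPO1, the receptor for leucine-rich export signals, differed by -0.73 (SE 0.39) with overlapping groups. XPO6, the exporter of actin, was at 2.36, 0.969 and 3.04 FPKM in Con and 2.73, 2.90 and 2.59 FPKM in GLUP, a difference of 0.32 (SE 0.30) that was 0.02 without Con replicate 2. XPOT, which exports transfer RNA, and XPO5, which exports microRNA precursors, differed by -0.22 (SE 0.25) and -0.21 (SE 0.25). XPO4 and XPO7 were under the minimum.

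The largest difference after RANBP1 and NUTF2 belonged to the mRNA export factor NXT1, a small protein that shares its fold with NUTF2. NXT1 (ENSG00000132661, protein-coding, chromosome 20, 23331428 to 23335408, plus strand, GRCh37) was at 38.7, 10.0 and 15.8 FPKM in Con and at 5.78, 7.97 and 8.92 FPKM in GLUP. The groups did not overlap, although Con replicate 2 was close to GLUP and Con replicate 1 was far above the other Con libraries. Its difference was -1.20 (SE 0.45), or -0.97 relative to the median. It was -0.69 without Con replicate 1 and -1.37 (SE 0.34) after GC and length correction. NXF1, which forms a dimer with NXT1, differed by only -0.01 (SE 0.26), and RAE1, a further mRNA export factor, by 0.02 (SE 0.40). The ratio of NXT1 to NXF1 was 9.58, 3.62 and 5.21 in Con and 1.90, 2.10 and 3.17 in GLUP.

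The nucleoporins were grouped by their place in the pore. In the Y complex, the outer scaffold, 5 of 7 genes had a lower mean in GLUP, as did 65.5% of all tested genes. The median difference of the complex was -0.42, or -0.19 relative to that of all tested genes. Its member NUP160 was at 5.31, 6.85 and 3.76 FPKM in Con and at 2.34, 2.29 and 1.92 FPKM in GLUP, clear of overlap, with a difference of -0.96 (SE 0.28) and of -0.51 (SE 0.17) after GC and length correction. NUP133 also lay below Con in all GLUP libraries, at a difference of -0.49 (SE 0.22), or -0.07 (SE 0.15) after GC and length correction. NUP37, the most abundant of the complex, was at 21.1, 9.85 and 7.95 FPKM in Con and 7.78, 7.02 and 9.05 FPKM in GLUP, so that the groups overlapped. Its difference of -0.53 (SE 0.37) was -0.15 without Con replicate 1. The other 4 scaffold genes, NUP43, SEH1L, NUP107 and NUP85, ranged from -0.42 to 0.12.

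In the inner ring, NUP35 was at 10.5, 8.20 and 5.94 FPKM in Con and 4.34, 3.59 and 4.22 FPKM in GLUP. These groups did not overlap, and the difference of -0.84 (SE 0.29) was -0.24 (SE 0.20) after GC and length correction. NUP93, an inner ring linker, was at 9.42, 15.4 and 6.03 FPKM in Con and 7.34, 6.72 and 10.2 FPKM in GLUP, and NUP188 was at 0.97, 0.405 and 1.28 FPKM in Con and 1.81, 1.37 and 0.816 FPKM in GLUP. Both overlapped, at differences of -0.25 (SE 0.36) and 0.31 (SE 0.26), which were 0.07 and 0.12 without Con replicate 2. NUP155 differed by -0.22 (SE 0.24), and NUP205 was under the minimum.

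Central channel genes carry the repeats that receptors bind. NUP62, their most abundant gene, was at 13.1, 15.8 and 12.9 FPKM in Con and 12.5, 11.3 and 8.05 FPKM in GLUP. The groups did not overlap, though only narrowly at Con replicate 3, and the difference was -0.38 (SE 0.29), or -0.21 without GLUP replicate 3 and -0.11 to -0.10 under the 3 scalings tried. NUP54 was at 4.46, 6.34 and 2.36 FPKM in Con and 2.38, 2.31 and 1.53 FPKM in GLUP, with overlap at Con replicate 3 and a difference of -0.75 (SE 0.32), or -0.49 without Con replicate 2 and -0.15 (SE 0.21) after GC and length correction. NUP98 differed by -0.21 (SE 0.23), and NUP58 was under the minimum.

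At the faces of the pore, NUP88 of the cytoplasmic filaments was at 4.31, 6.16 and 3.09 FPKM in Con and 3.67, 3.82 and 3.51 FPKM in GLUP, and TPR of the nuclear basket was at 5.82, 8.93 and 5.08 FPKM in Con and 5.30, 5.44 and 5.58 FPKM in GLUP. Both overlapped, at differences of -0.20 (SE 0.28) and -0.21 (SE 0.29), and both differences were 0.00 without Con replicate 2. NUP50 of the basket differed by -0.19 (SE 0.31). In the pore membrane group, AAAS was at 4.47, 1.05 and 3.45 FPKM in Con and 6.02, 5.10 and 3.96 FPKM in GLUP, with overlap and a difference of 0.70 (SE 0.38) that was 0.27 without Con replicate 2. NDC1 differed by -0.17 (SE 0.23). NUP214, RANBP2, NUP153, POM121 and NUP210 were under the minimum.

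**Figure D4:**
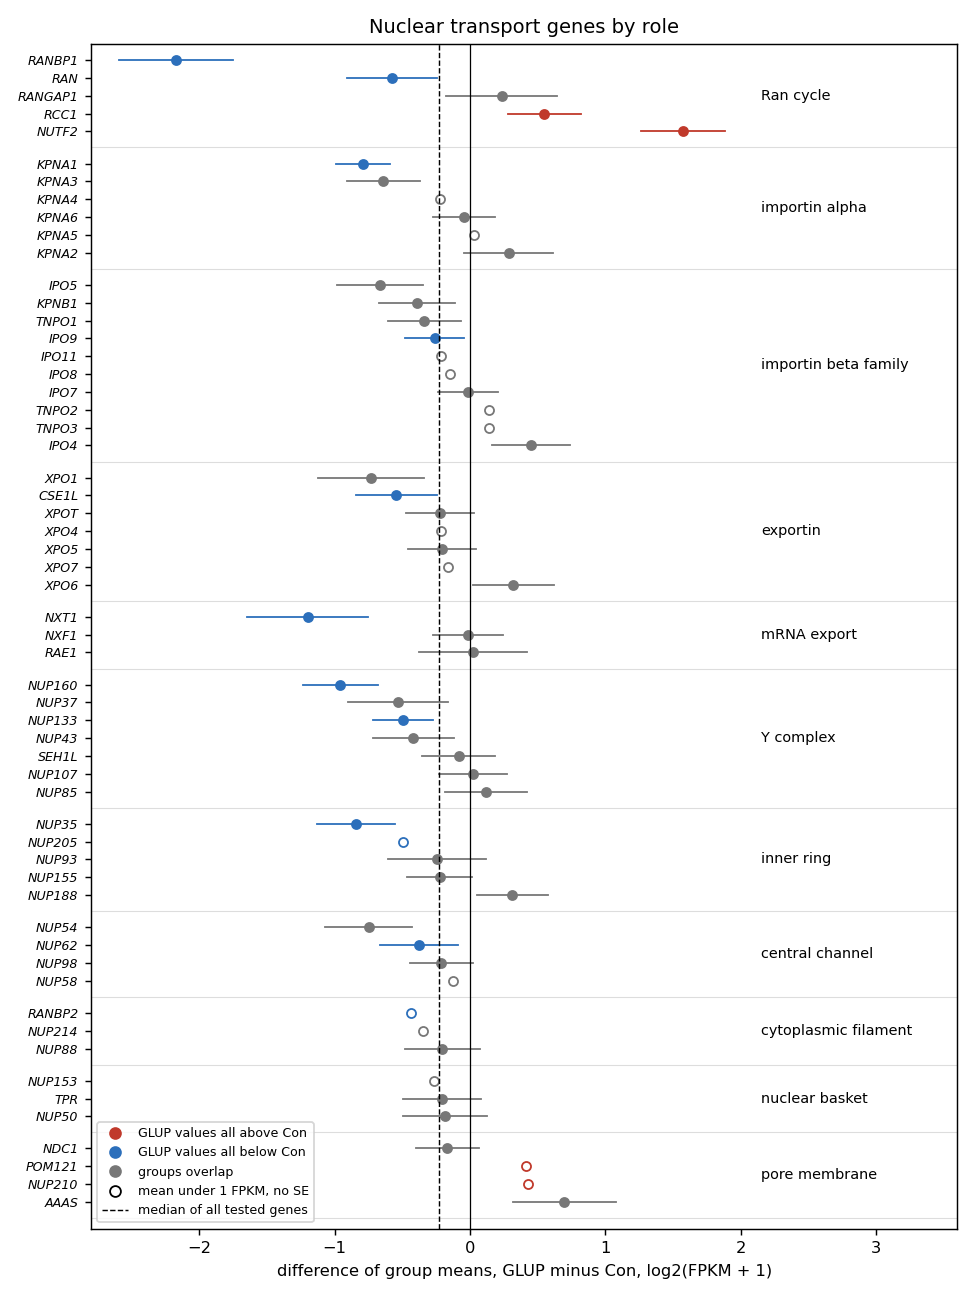
Difference of group means, GLUP minus Con, in log2(FPKM + 1) for all 57 genes by role. Lines give 1 SE for the 42 tested genes, open points are the 15 genes under the minimum, and the dashed line is the median of all tested genes at -0.23. RANBP1 at -2.17 and NUTF2 at 1.57 lie outside the range of the other tested genes, -1.20 to 0.70.

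The 15 genes under the minimum had means of 0.151 to 0.952 FPKM and were not tested. GLUP lay wholly below Con for 2 of them, NUP205 and RANBP2, wholly above for POM121 and NUP210, and overlapped for 11, whereas 22.7% of the tested genes lay wholly below and 7.55% wholly above. NUP210, a membrane glycoprotein of the pore, was at 0.288, 0.297 and 0.270 FPKM in Con and 1.04, 0.651 and 0.537 FPKM in GLUP. POM121 has a near-identical copy, POM121C, and RANBP2 shares most of its sequence with the RGPD genes, so both are uncertain. XPO5, NUP43 and NUP88 overlap more abundant genes on the other strand, POLR1C at 23.7 to 65.4 FPKM, PCMT1 at 36.8 to 73.4 FPKM and RPAIN at 10.9 to 46.5 FPKM, which leaves their values uncertain as well.

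Differential expression was tested by limma across all 7406 genes. No member of the list had an adjusted p-value under 0.05 (0 of 40 without RANBP1 and NUTF2), and neither had any of all tested genes (0.0%), of which 1606 had an unadjusted p under 0.05. Adjusted p-values of the 40 genes ran from 0.194 to 0.976. At an unadjusted p under 0.05, 7 of the 40 were lower in GLUP and 0 were higher, while 17.2% of all tested genes were lower and 4.46% were higher. All GLUP values lay below all Con values for 9 of the 40 genes, against 22.7% of all tested genes, and above for 1, against 7.55%. Of the 40, 30 had a lower mean in GLUP, which was so for 65.5% of all tested genes. On the scale of log2(FPKM + 1), NXT1 alone of the 40 differed more than 2-fold. On that scale 6.81% of all tested genes were more than 2-fold lower and 2.94% more than 2-fold higher. The scale understates changes of low genes. With 0.1 added in place of 1, KPNA1 differed by -1.48 and NUP160 by -1.21, so this count depends on the added value. The median difference of the 40 genes in log2(FPKM + 1) was -0.22, or 0.01 relative to that of all tested genes. Scaling by the trimmed mean of log ratios moved the median of all tested genes from -0.23 to -0.01 and that of the 42 genes from -0.22 to -0.01, so that the sign of a small difference rests on the scaling. A single control library decided the calls: without Con replicate 3, 6 of the 40 genes passed an adjusted p of 0.05 in limma (KPNA1, KPNA3, NUP133, NUP160, NUP35 and NUP54), as did 18.5% of all tested genes. KPNA1, KPNA3 and NUP133 met the minimum only through Con, with GLUP means of 0.529, 0.997 and 0.652 FPKM. NUP188 met it only through GLUP, with a Con mean of 0.884 FPKM. The minimum thus favoured a difference in these genes, and their place in the counts is no support for one. The study's methods speak of biological replicates for the sequenced RNA, but neither they nor the labels say how each library was cultured. The p-values therefore measure the spread between these libraries.

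Con libraries differed more among themselves than GLUP libraries did for 30 of the 42 genes, and for 5976 of all 7406 tested genes. The median SD of a tested gene was 0.36 over the Con libraries and 0.18 over the GLUP libraries on the log2 scale (n = 3 each), compared with 0.43 and 0.20 for all tested genes. Con replicate 1 was the highest library for 19 of the 42 genes, and Con replicate 2 was the highest for 14 and the lowest for 11. GLUP replicate 3 was the lowest for 19. The 11 genes with their lowest value in Con replicate 2 were RCC1, RANGAP1, NUTF2, KPNA2, IPO4, XPO6, NXF1, RAE1, NUP85, NUP188 and AAAS.

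These differences were then set against the base composition of the transcripts. Across the 42 genes, which are not independent replicates, the Spearman correlation between the GC content of the canonical transcript and the difference of GLUP from Con was 0.50 (0.53 without RANBP1 and NUTF2), compared with 0.56 across 7279 tested genes. GC content was also correlated with the deviation of each library from the gene mean. Across the 42 genes the correlation was -0.30, -0.57 and 0.50 in Con and 0.41, 0.44 and 0.36 in GLUP. Across the 7279 tested genes it was -0.34, -0.60 and 0.46 in Con and 0.43, 0.54 and 0.34 in GLUP. Of the 21 genes with the lowest GC content, 36.0% to 43.7%, 20 had a lower mean in GLUP, with a median difference of -0.49. The 21 genes with the highest GC content, 44.6% to 59.3%, had a median difference of -0.01, and 11 had a lower mean. RANBP1 and NUTF2 had similar transcripts in this respect, with GC contents of 48.8% and 51.0%. After GC and length correction, RANBP1 differed by -2.0 (SE 0.36) and NUTF2 by 1.62 (SE 0.23), and the median of the 42 genes was 0.10. Transcript length ranked the list differently: NXT1, at 1062 bases, and RANBP1, at 1221 bases, had the shortest transcripts of the 42, NUTF2 had 2120 bases, and the median was 4379 bases. The correlation of length with the difference was -0.05 across the 42 genes and -0.22 across all tested genes.

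**Figure D5:**
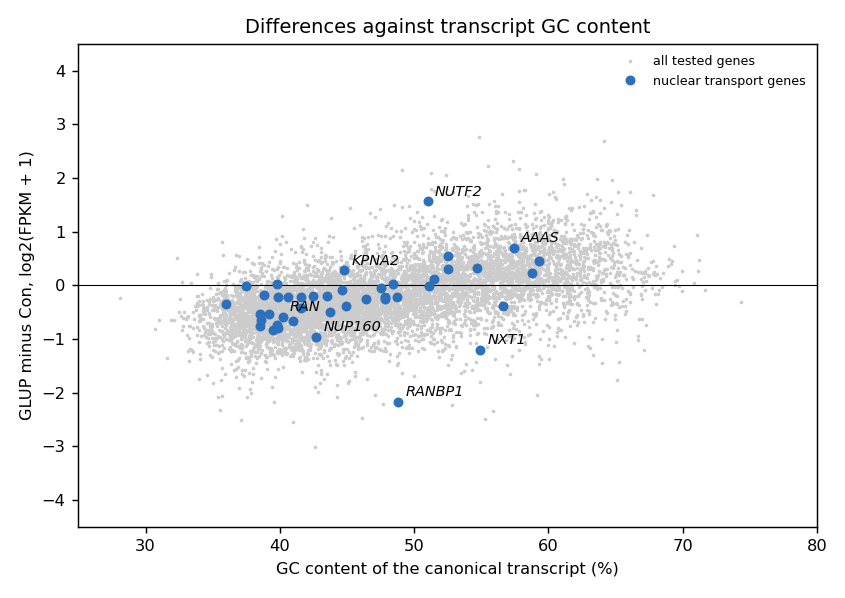
Difference of GLUP from Con in log2(FPKM + 1) against the GC content of the canonical transcript for all tested genes (grey) and the 42 nuclear transport genes (blue). The blue points follow the grey cloud, with low-GC genes below 0, while RANBP1 at 48.8% GC and NUTF2 at 51.0% GC stand at the edges.

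The promoters of these genes were then read, since GLUP was directed at TEAD4, a factor that binds the M-CAT element. RefSeq sequences of the 250 bases before the start (GRCh38.p14) were found for 51 of the 57 genes. They were searched on both strands for GGAATG (the core of the M-CAT element), CACGTG (an E-box), CCAAT, the palindromic NRF1 motif and GGGCGG (a GC box). Entries were missing for RANBP1, KPNA4, KPNA5, KPNB1, XPO7 and NUP43. GGAATG occurred in 9 of the 51 promoters (17.6%), compared with 11.9% of all 27305 promoters and 9.30% of those of tested genes. The 51 include promoters of untested members, so the shares of tested genes cover a narrower set. Among the 39 tested members with an entry, 9 held GGAATG (23.1%). Of the 51 promoters, CACGTG was found in 7 (13.7%, against 6.49% of all promoters and 8.97% of those of tested genes). CCAAT was found in 20 (39.2%, against 33.0% and 37.9%), and the NRF1 motif in 3 (5.88%, against 1.13% and 2.48%). GGGCGG was found in 28 (54.9%), above the 42.3% of all promoters and below the 66.8% of those of tested genes. The holders of GGAATG were RCC1, KPNA1, KPNA2, IPO9, XPOT, CSE1L, NXT1, NUP160 and NUP35. Of the 9 tested members with a promoter entry whose GLUP values were all below Con, 6 held GGAATG, as did 1 of 2 above Con and 2 of 28 with overlapping groups. Over all tested genes the motif was no more common in genes below Con (9.38%) than in genes above Con (9.52%) or with overlapping groups (9.25%). The median difference was -0.54 for the 9 tested members with the motif and -0.20 for the 30 without it, and over all tested genes it was -0.30 for 503 genes with it and -0.25 for 4905 without it. A match is a run of letters and does not show that a factor binds there.

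The promoters of KPNA1, NXT1, NUP160 and NUP35 are given because these 4 genes held GGAATG or its reverse complement CATTCC and had 4 of the 6 largest negative differences. Those of NUTF2 and RAN, which lacked it, are given for comparison as the gene with the largest positive difference and the most abundant gene. Each runs 5′ to 3′ on the strand of the gene up to the base before its start, in GRCh38.p14, with every motif of the search in capitals. The GC box of RAN that starts 97 bases before the start shares its first base with the last of the E-box.
NXT1, chr20:23350541-23350790, plus strand: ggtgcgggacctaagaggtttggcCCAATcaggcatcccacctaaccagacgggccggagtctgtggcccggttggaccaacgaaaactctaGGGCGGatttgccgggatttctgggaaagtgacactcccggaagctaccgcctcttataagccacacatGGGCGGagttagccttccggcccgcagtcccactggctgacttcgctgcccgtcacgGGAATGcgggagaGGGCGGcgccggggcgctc
NUP160, chr11:47848351-47848600, minus strand: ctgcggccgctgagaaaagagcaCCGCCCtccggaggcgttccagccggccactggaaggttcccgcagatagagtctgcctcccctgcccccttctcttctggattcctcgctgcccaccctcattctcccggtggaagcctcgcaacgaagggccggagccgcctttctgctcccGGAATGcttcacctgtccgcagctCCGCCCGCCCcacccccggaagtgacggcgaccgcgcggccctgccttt
NUP35, chr2:183124193-183124442, plus strand: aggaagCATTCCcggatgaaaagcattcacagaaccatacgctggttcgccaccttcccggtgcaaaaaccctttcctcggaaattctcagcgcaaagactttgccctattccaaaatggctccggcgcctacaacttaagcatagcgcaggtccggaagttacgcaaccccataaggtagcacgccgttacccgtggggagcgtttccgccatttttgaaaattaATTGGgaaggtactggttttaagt
KPNA1, chr3:122514940-122515189, minus strand: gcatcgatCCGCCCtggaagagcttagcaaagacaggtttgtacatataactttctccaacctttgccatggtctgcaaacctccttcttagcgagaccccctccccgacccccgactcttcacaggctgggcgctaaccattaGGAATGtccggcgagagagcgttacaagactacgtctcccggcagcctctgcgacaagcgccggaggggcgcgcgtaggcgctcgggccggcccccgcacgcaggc
NUTF2, chr16:67846683-67846932, plus strand: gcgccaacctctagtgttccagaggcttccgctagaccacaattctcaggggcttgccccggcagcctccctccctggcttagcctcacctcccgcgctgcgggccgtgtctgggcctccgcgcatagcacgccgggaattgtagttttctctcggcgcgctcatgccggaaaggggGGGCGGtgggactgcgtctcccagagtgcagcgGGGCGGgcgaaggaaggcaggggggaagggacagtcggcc
RAN, chr12:130871816-130872065, plus strand: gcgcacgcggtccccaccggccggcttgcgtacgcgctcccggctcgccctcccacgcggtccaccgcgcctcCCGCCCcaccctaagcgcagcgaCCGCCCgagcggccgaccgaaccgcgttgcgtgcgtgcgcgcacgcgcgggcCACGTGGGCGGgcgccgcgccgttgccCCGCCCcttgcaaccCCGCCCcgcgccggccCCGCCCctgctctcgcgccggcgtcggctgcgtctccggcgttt
GGAATG began 32 bases before the start in NXT1, 73 in NUP160, 244 in NUP35 (as CATTCC) and 106 in KPNA1. RCC1, whose GLUP values were all above Con, held it at 211 and 60 bases. NUP54 did not hold it and RANBP1 had no entry, although both were among the 6 largest negative differences. The printed promoters were chosen by motif and by the contrast itself, so they do not test a link between the 2. NUTF2 held GC boxes at 73 and 40 bases and RAN held 6 GC boxes and an E-box at 102 bases. GC content of these windows was 81.2% in RAN and 68.0% in NUTF2, against a median of 62.8% for the 51 promoters and 58.0% for all promoters.

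Other genes of nuclear transport and of the nuclear envelope were examined as lists, also chosen with earlier results of these data known. None of them passed an adjusted p of 0.05 in limma. Further Ran and karyopherin genes had 6 of 9 members tested and a median difference of -0.22, against -0.23 for all tested genes. At an unadjusted p under 0.05, 1 was lower and 0 were higher, where 17.2% of all tested genes were lower and 4.46% higher. Their extremes were RANBP9, at -0.72 (SE 0.25), and RANGRF, a RAN-binding factor, at 0.30 (SE 0.37). RANBP9 met the minimum only through Con, with a GLUP mean of 0.749 FPKM. Further nucleoporins had 5 of 9 members tested, with 2 lower (17.2% of all tested genes) and 0 higher (4.46%) at an unadjusted p under 0.05, from NUP42 at -0.82 (SE 0.35) to the Y complex member SEC13 at 0.54 (SE 0.30).

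The TREX and TREX-2 complexes, which load export factors onto mRNA, had all 19 members tested, 5 lower (THOC2, THOC7, PCID2, CETN2 and CETN3, against 17.2% of all tested genes) and 0 higher (against 4.46%) at an unadjusted p under 0.05. The helicase DDX39A was at 160.0, 36.9 and 204.6 FPKM in Con and 241.7, 223.4 and 213.9 FPKM in GLUP, with all GLUP values above Con and a difference of 1.07 (SE 0.55). The scaffold THOC2 was at 9.54, 12.4 and 3.70 FPKM in Con and 3.67, 3.37 and 3.14 FPKM in GLUP, a difference of -0.99 (SE 0.38). Con replicate 2 was thus lowest for DDX39A and highest for THOC2. Nuclear lamina genes had 7 of 11 members tested, none at an unadjusted p under 0.05, where 17.2% of all tested genes were lower and 4.46% higher. Their median difference was 0.51, against -0.23 for all tested genes. GLUP lay wholly below Con for 1 (22.7% of all tested genes) and wholly above for 2 (7.55%). Their extremes were -0.80 (SE 0.36) for SUN1 and 0.86 (SE 0.38) for LMNB2.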

How the data were processed

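RNA of 3 Con and 3 GLUP libraries of HGC-27 cells was sequenced, and groups follow the sample titles. The authors deposited FPKM values per gene, without read counts. The submitters' processing notes name HISAT2, Cufflinks and RSEM, with no versions or roles, and GRCh38.p10, whereas 53057 of the 62492 row identifiers carry the suffix of a GENCODE annotation lifted to GRCh37. The 49 pseudoautosomal Y rows, all at 0, were summed with their counterparts. Symbols came from a table of Ensembl identifiers (62162 of 62443 genes). Coordinates, length and GC content came from GENCODE release 44 lifted to GRCh37.

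FPKM is relative to each library's total and carries no depth, so a count model was not used and depth is unknown. Values were transformed to log2(FPKM + 1), which understates changes of low genes. Genes averaging 1 FPKM or more were fitted with limma 3.58.1 (eBayes with trend, no covariate, two-sided, Benjamini-Hochberg) in R 4.3.3. The fit was also run on simulated data with equal noise in both groups. Con libraries spread more than GLUP libraries here, so that run does not give the error rates for these data. Values per library are printed for the Ran cycle genes, the most abundant gene of each role, and the 6 largest differences in each direction. Other genes printed with values were chosen after these were seen. Members and lists were chosen with earlier results of these data known. Alternatives were a pseudocount of 0.1, no filter or a minimum of 5 FPKM, 3 scalings, 2 variants of eBayes, the replicate block, removal of a loess trend in GC and length (span 0.5), and leaving out each library. Results for 1 further list are not reported here.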

Additional observations from a re-analysis of the deposited data

How the results depend on the processing

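All alternatives were listed with earlier results of these data known. RANBP1 stayed between -2.66 and -1.87 and NUTF2 between 1.43 and 1.86 on the log2 scale in every alternative, and 19 of the 42 tested genes kept their sign in every alternative in which they were tested (6 higher and 13 lower), which for genes under 5 FPKM leaves out the higher minimum. A kept sign can be a difference near 0: among the 19, KPNB1 reached -0.0, RAN -0.03 and XPO6 0.02. Over all tested genes, 1 passed an adjusted p of 0.05 in limma under eBayes without trend, the replicate block, a minimum of 5 FPKM, and GC and length correction with or without the block, and 0 to 1367 did when a library was left out (1367 without Con replicate 3 and 3 without Con replicate 2). The replicate numbers did not pair the libraries (correlations of deviations 0.13, -0.01 and -0.17). The block changed no count of the 42 genes at an unadjusted p under 0.05. Counts wholly below or above Con do not depend on the model, so the block could not change them.

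At an unadjusted p under 0.05, 8 of the 42 genes were lower and 1 was higher in GLUP, and 10 lay wholly below and 2 wholly above Con. RANBP1 and NUTF2, which were chosen for this contrast, are included for completeness and not as a test. Without them the counts were 7, 0, 9 and 1, and each count below was lower by 1 as well. Over all members tested, the 4 counts were 4, 3, 5 and 4 under trimmed-mean scaling, 4, 3, 5 and 3 with quantile normalization, 4, 3, 5 and 6 with centring on the median, and 3, 4, 5 and 8 after GC and length correction (also with the replicate block). With a minimum of 5 FPKM, where 15 members were tested, they were 3, 1, 6 and 1. Without a filter, where all 57 were, 4 were higher at an unadjusted p under 0.05 and 4 lay wholly above. Of all 31444 genes then tested, 2541 had an unadjusted p under 0.05 in limma. Leaving out a library gave 3 to 11 lower (11 without Con replicate 3, and 3 to 5 without any other library), 1 to 2 higher, 10 to 21 wholly below (21 without Con replicate 3, whose group then has fewer values to clear) and 2 to 5 wholly above (5 without GLUP replicate 3). All tested genes at an unadjusted p under 0.05 in limma, in either direction, moved as well, from 1606 in the reported fit. They numbered 1408 to 1419 under the 3 scalings, 1349 of 7279 after GC and length correction, and 809 of 3278 with a minimum of 5 FPKM. Without Con replicate 3 they numbered 2986, and without any other library 785 to 1390. Shares of all genes wholly below or above are not given for the alternatives, so these counts show no trait of the members. The median difference of the members, -0.22, was -0.38 with a minimum of 5 FPKM, -0.01 under trimmed-mean scaling, -0.02 with quantile normalization, 0.05 with centring, 0.10 after GC and length correction (with the block too), and -0.35 to -0.18 when a library was left out. The scalings moved the median of all genes with it, so that the sign of a small difference depends on the scaling, and the cause of the other shifts was not tested. With 3 libraries per group and no read counts, differences of the low nucleoporins cannot be set against counting error.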
